A study of Mus musculus with 50 samples.

Results

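The 9 genes described here encode enzymes of the citric acid cycle: Cs, Idh3a, Idh3b, Ogdh, Dlst, Sdha, Sdhb, Fh1 and Mdh2. They were taken by name as the rows of a mouse thyroid count table that map to these symbols, 9 of 52636 genes. The choice was made with earlier results of these data known. The table holds 50 RNA-seq libraries in 10 groups of 5, all from thyroids labelled normal of male C57BL/6 mice with no genetic change named in the labels, aged 10 to 14 weeks per the treatment protocol and 10 to 12 weeks per the series design. Every mouse received 1 intraperitoneal injection of antibodies that block Notch signalling, or of an anti-ragweed isotype control (RW, 40 mg/kg). The aJ1aJ2 groups received antibodies to the ligands Jag1 and Jag2 (20 mg/kg each), the aN1aN2 groups antibodies to the receptors Notch1 and Notch2 (5 and 10 mg/kg), and the aN1aN2aN3 group antibodies to Notch1, Notch2 and Notch3 (5, 10 and 20 mg/kg). RW, aJ1aJ2 and aN1aN2 were compared at 15 hours and at 5 days. At 15 hours the aN1aN2 libraries have sample IDs that run on into those of 5 days, apart from the IDs of RW and aJ1aJ2. At 7 days a first set, by the sample IDs, holds RW and aJ1aJ2, and a second set holds aJ1aJ2 and aN1aN2aN3, with no RW library of the second set analysed here. The series design also mentions thyroid hormone injections, and no label says whether any of these mice received them.

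The citric acid cycle runs in the mitochondrial matrix, where it oxidises the acetyl group of acetyl-CoA to carbon dioxide and passes the electrons to NADH and FADH2 for the respiratory chain. Its enzymes are encoded in the nucleus and imported, and tissues rich in mitochondria, such as oxidative muscle, heart and brown fat, are known for high levels of them. Citrate synthase (Cs) opens the cycle, the NAD-dependent isocitrate dehydrogenase (Idh3a is its catalytic subunit, Idh3b a partner subunit) and the oxoglutarate dehydrogenase complex (Ogdh is its E1 component, Dlst its E2 component) carry out the oxidative decarboxylations, and succinate dehydrogenase (Sdha the flavoprotein, Sdhb the iron-sulfur subunit) is also complex II of the respiratory chain. Fumarate hydratase (Fh1) and mitochondrial malate dehydrogenase (Mdh2) close the cycle.

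Total counts ran from 15.3 M to 52.8 M per library (M for 1e6 counts) with a median of 28.3 M, and the lowest count of any of the 9 genes in any library was 1493, so the spread between libraries and not counting error set the precision. The 12 thyroid follicle markers were detected in every group, led by Tg (thyroglobulin), and outside the second set their summed level ran from 79412 to 508664 CPM (counts scaled to a common library size with TMM factors), except in RW replicate 3 (8073) and aJ1aJ2 replicate 3 (25478) at 5 days. The 10 libraries of the second set lay at 13578 to 49224. Skeletal muscle RNA varied between libraries: 12 muscle genes, led by Myh4 and Acta1 with none at 0 counts in any group, took from 0.0470% of all counts to 12.8% (RW replicate 3 at 5 days). In 14 of the 50 libraries they took over 3%, the lowest of these being 3.51% and the highest of the other 36 being 1.97%. Each comparison is given below with and without those 14 libraries, a limit chosen after the data were seen. In whole tissue, fewer cells of a type and less RNA per cell cannot be told apart. No label says that the libraries of a group come from separate mice, so p-values measure only the spread between libraries.

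Between genes, levels were compared per kilobase of exon, as TMM-scaled CPM over the union of each gene's GENCODE M21 exons, because the deposited FPKM was found to be scaled by the whole gene with its introns: the length it implies lay within 10% of the gene span, up to a common factor, for 9227 of 10080 genes, and within 10% of the exon length for 858. Whether the counts take in intron reads is not stated, which limits any such order. Over the 40 libraries outside the second set, Sdha (median 112 CPM per kilobase), Mdh2 (108) and Ogdh (97.7) were the highest, with Sdha above Mdh2 in 28 of 40 libraries and Ogdh above the next gene, Sdhb (55.0), in 38. Cs followed at 50.8, Idh3b at 50.1, Idh3a at 39.0, Fh1 at 38.5 and Dlst at 24.9. Some neighbours in this order changed places between libraries, with Sdhb above Cs in 20 of 40 and Idh3a above Fh1 in 25. Scaled instead by the longest protein-coding transcript, an alternative added later, Mdh2 (264), Sdha (160) and Ogdh (129) again had the highest medians, but Mdh2 was above Sdha in 40 of 40 libraries, and Dlst (86.0) moved above Idh3a (76.7) and Fh1 (49.6), so the order depends on the length used. Idh3b exons overlap Nop56 on the opposite strand and the use of strand in counting is not given in the sources used here, so its level is uncertain. Cs shares 115 of its 5730 stretches of 50 bases with Csl and Dlst shares 32 of 9718 with Rap2a. The other genes share none with another gene on either strand, Idh3b with 0 of 3509 despite the overlap with Nop56.

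The RefSeq promoter table (build GRCm38.p6) holds windows of 8 of the 9 genes, all but Idh3a. They were searched on both strands for 3 motifs of factors known to act on mitochondrial genes. The NRF1-type motif GCGCNTGCG occurs in 6.313% of all 32851 promoter windows, in the window of Sdha and in some but not all windows of Ogdh. The ETS-type motif CCGGAAG occurs in 8.858% and in the windows of Idh3b, Sdhb and Dlst. The ERR-type motif TCAAGGTCA occurs in 0.4231% and in none of the 8 genes. These shares are of windows, whereas a gene counts if any of its windows holds the motif. The windows below run from 100 bases before to 20 bases after the transcript start on the gene's own strand, with motif matches in capitals. They were picked with the levels in view: Sdha and Sdhb, subunits of 1 enzyme whose levels part in the second set below, hold different motifs. Idh3b and Dlst share that of Sdhb, and Ogdh, which shares that of Sdha, is not shown. Motif and level did not go together throughout: between the aJ1aJ2 groups of the 2 sets at 7 days, Sdhb was higher in the second (log2 fold change 1.57) and Dlst lower (-1.03). A link between motif and level was not tested. The 3 matches of Sdha (chr13:74350221-74350340, minus strand) and those of Idh3b (chr2:130284432-130284551, minus strand) and Dlst (chr12:85110733-85110852, plus strand) read as the reverse complement of the motif. The match of Sdhb (chr4:140961171-140961290, plus strand) lies just after the start. A match is a description of the sequence, not a bound site.
Sdha: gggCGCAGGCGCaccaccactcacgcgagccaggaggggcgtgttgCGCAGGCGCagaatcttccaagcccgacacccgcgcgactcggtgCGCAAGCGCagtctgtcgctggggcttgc
Sdhb: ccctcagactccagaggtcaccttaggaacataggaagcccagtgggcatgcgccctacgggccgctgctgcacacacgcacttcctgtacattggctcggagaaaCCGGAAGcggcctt
Idh3b: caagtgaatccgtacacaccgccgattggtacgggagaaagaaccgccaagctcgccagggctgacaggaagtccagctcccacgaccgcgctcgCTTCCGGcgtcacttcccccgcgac
Dlst: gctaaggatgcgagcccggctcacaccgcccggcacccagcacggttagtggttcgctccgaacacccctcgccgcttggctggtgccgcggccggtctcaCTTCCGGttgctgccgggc

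**Figure D1:**
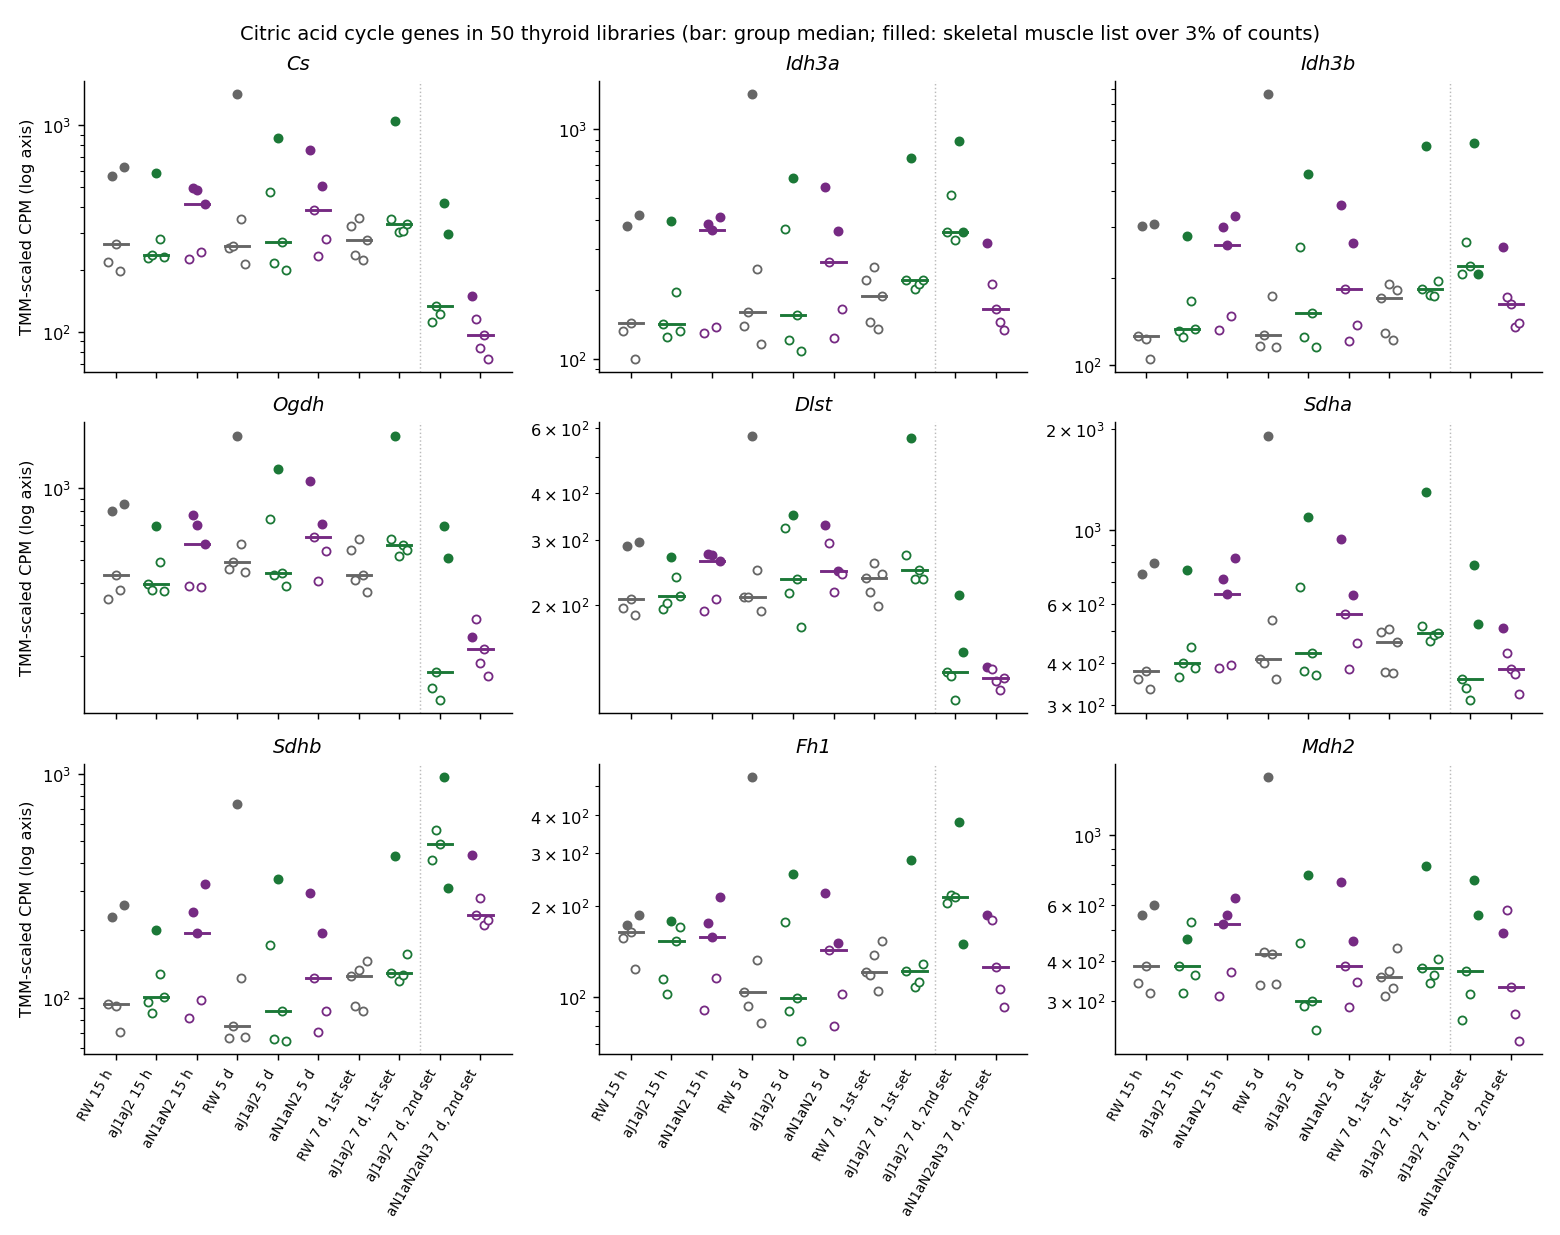
TMM-scaled CPM (log axis) of each of the 9 genes in each of the 50 libraries, by group, with a bar at the group median; filled points are the 14 libraries in which 12 skeletal muscle genes took over 3% of counts. In 8 of the 9 panels the highest library is RW replicate 3 at 5 days or aJ1aJ2 replicate 2 of the first 7-day set, and in the Sdhb panel it is aJ1aJ2 replicate 4 of the second set.

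The 9 genes rose and fell together from library to library within groups. On log2(CPM + 1) centred on the group means, the 36 pairs had Pearson correlations between 0.74 and 0.99 over the 50 libraries (median 0.92), between 0.87 and 0.99 over the 40 libraries outside the second set, and between 0.28 and 0.97 over the 10 of the second set. These are descriptions, and the points share depth, scaling and tissue makeup within a library. The 5 genes most like the mean of the 9, of 10128 genes compared, were Cyc1 (cytochrome c1, r = 0.99), Ndufv1 (a complex I subunit, 0.99), Atp5b (the beta subunit of ATP synthase, 0.99), Immt (a mitochondrial inner membrane organiser, 0.99) and Ndufa10 (a complex I subunit, 0.99). A correlation above 0.9 was shared by 783 genes.

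The same centred mean moved with the summed level of the skeletal muscle genes (r = 0.86, Spearman 0.86, n = 50 libraries, and 0.89 without the 2 libraries farthest from the median), with the 6 brown fat genes led by Ucp1 (0.93), the 8 adipocyte genes led by Car3 (0.87) and the 13 mitochondrially encoded protein genes led by mt-Cytb (0.94). It moved against the thyroid follicle markers (-0.82 over the 50 libraries, -0.76 at 15 hours, -0.95 at 5 days and -0.89 in the first 7-day set), but not in the second 7-day set (-0.033). By time and set, the correlation with the muscle genes was 0.95 over the 15 libraries at 15 hours, 0.96 over the 15 at 5 days, 0.74 over the 10 of the first 7-day set and 0.70 over the 10 of the second. Gene by gene over all 50 libraries it was highest for Cs (0.90) and lowest for Fh1 (0.72). In the second set it was high for Sdha (0.84), Cs (0.83) and Ogdh (0.78), and lower for Idh3a (0.42), Fh1 (0.37) and Sdhb (0.33). With the brown fat genes, the mean of the 9 had a correlation of 0.98 at 15 hours and 0.94 at 5 days. It was 0.94 in the first 7-day set and 0.81 in the second, above that with muscle in both. Over the 50 libraries the endothelial (-0.74), fibroblast (0.65), C cell (-0.61) and cartilage (0.50) lists followed, and the remaining lists lay between -0.19 and 0.24. The part of muscle or fat RNA in any difference between groups was not tested beyond the refits given with each comparison, none of which adjusts for fat.

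**Figure D2:**
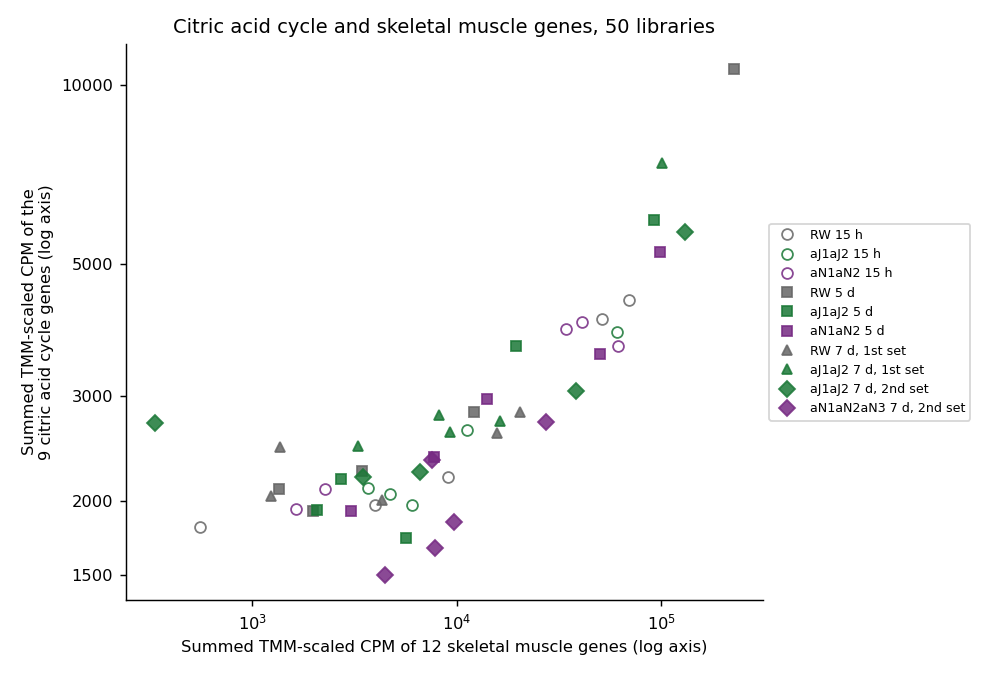
Summed TMM-scaled CPM of the 9 citric acid cycle genes against that of the 12 skeletal muscle genes in each of the 50 libraries (both axes log), with colour for treatment and marker shape for time and set. RW replicate 3 at 5 days is highest on both axes, at 10628 CPM for the 9 genes and 226171 for the muscle genes, and the lowest sum of the 9 genes, 1502 CPM, is an aN1aN2aN3 library.

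At 15 hours none of the 9 genes passed the test between either antibody pair and RW. The SEs of the log2 fold changes ran from 0.17 to 0.50, so differences of about that size could not be seen. Citrate synthase illustrates the spread: Cs stood at 217, 569, 267, 196 and 624 CPM in the 5 RW libraries, at 228, 235, 588, 282 and 231 after aJ1aJ2, and at 224, 496, 484, 242 and 417 after aN1aN2. The high values of each group are libraries with over 3% muscle counts (2 of RW, 1 of aJ1aJ2 and 3 of aN1aN2), and the groups overlap. Against RW, the log2 fold changes after aJ1aJ2 were all below 0, from -0.28 for Sdhb (SE 0.44) to -0.075 for Dlst (SE 0.17), with a median of -0.21 beside -0.030 over all 18513 genes tested. After aN1aN2 they ran from -0.099 for Fh1 (SE 0.22) to 0.33 for Sdhb (SE 0.44), with a median of 0.11 beside 0.0097. No gene of the 9 passed an adjusted p of 0.05 in edgeR's quasi-likelihood test in either comparison (0 of 9 also at an unadjusted p under 0.05, and 0 in DESeq2), where 0.573% of all genes did for aJ1aJ2 and 1.68% for aN1aN2. No gene of the 9 had groups without overlap, as 1.72% and 5.22% of all genes did. Without RW replicate 5 alone 7 of the 9 values for aJ1aJ2 turned positive (at most 0.10), and without RW replicate 2 alone 5 did. Without the 6 libraries over the muscle limit, 8 of the 9 values for aJ1aJ2 lay above 0 (-0.12 to 0.28) and those for aN1aN2 ran from -0.52 to 0.26, again with 0 called. Of all genes 0.0475% and 0.739% were called in those refits. In the aN1aN2 comparison 4 of the 13 mitochondrially encoded genes were higher and 0 lower. The aN1aN2 comparison at this time sets 1 series of sample IDs against another. The library factor of the deposited FPKM, over a size factor from the counts, was 1.14 to 1.18 in the 5 aN1aN2 libraries and 0.954 to 0.985 in the other 10 at 15 hours, and it was 1.11 to 1.19 in 14 of the 15 libraries at 5 days, whose IDs follow those of aN1aN2 (0.978 in RW replicate 3). For aN1aN2 against RW at 15 hours, the treatment and the ID series cannot be told apart.

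At 5 days again none of the 9 genes passed the test, and 1 control library set the direction of every value. The catalytic subunit Idh3a stood at 139, 159, 1418, 245 and 116 CPM in the RW libraries, at 366, 121, 612, 156 and 108 after aJ1aJ2, and at 561, 263, 123, 359 and 164 after aN1aN2. RW replicate 3, the library with the most muscle and the least thyroid follicle RNA, was the highest of all 15 for each of the 9 genes, and for Idh3a the other 4 RW libraries lay within the range of the treated ones. All log2 fold changes lay below 0 with all libraries included, from -0.62 for Idh3a (SE 0.75) to -0.15 for Dlst (SE 0.31) after aJ1aJ2 and from -0.51 for Idh3a (SE 0.75) to -0.12 for Dlst (SE 0.31) after aN1aN2, the medians being -0.34 and -0.40 beside -0.059 and -0.073 over all genes tested. Without RW replicate 3 all 9 turned positive in both comparisons, 0.098 to 0.81 for aJ1aJ2 and 0.19 to 0.89 for aN1aN2, still with 0 called. Without the 4 libraries over the muscle limit they ran from -0.25 to 0.28 and from -0.18 to 0.20. In those refits edgeR called 0 of the 9, where 8.63% of all genes were called for aJ1aJ2 and 0.982% for aN1aN2. With all libraries edgeR called 0.179% of all genes for aJ1aJ2 and 0% for aN1aN2 (1848 of 18434 at an unadjusted p under 0.05, with 486 genes in DESeq2 and 1523 with voom weights), and 0 of the 9 in both, also unadjusted and in DESeq2. For aJ1aJ2 the count of all genes also depended on the method, with 477 in DESeq2 and 3476 with voom weights, and 0 of the 9 in each. Groups did not overlap for 3.75% and 2.1% of all genes and for 0 of the 9.

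Interaction terms tested whether the antibody effects at 5 days differed from those at 15 hours. For aJ1aJ2 the differences of the log2 fold changes ran from -0.50 (Mdh2, SE 0.53) to 0.071 (Ogdh, SE 0.55), and for aN1aN2 from -0.82 (Sdhb, SE 0.89) to -0.14 (Ogdh, SE 0.55). The aN1aN2 interaction includes the 15-hour comparison in which treatment and ID series cannot be told apart. None of the 9 was called in either, where 0.636% and 1.8% of all genes were. The SEs, 0.34 to 0.92, were larger than the difference for each of the 9 genes after aJ1aJ2.

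In the first 7-day set all 9 genes had higher mean levels after aJ1aJ2 than after RW, and none passed the test. Ogdh, the component that decarboxylates oxoglutarate, stood at 552, 412, 614, 433 and 369.9 CPM after RW and at 611, 1661, 522, 581 and 555 after aJ1aJ2. All 5 treated libraries lay above the RW median of 433, yet the groups overlap, and the library at 1661 is aJ1aJ2 replicate 2, whose muscle genes took 8.19% of counts. Log2 fold changes ran from 0.25 for Fh1 (SE 0.27) to 0.77 for Idh3a (SE 0.39), with 0.73 for Cs (SE 0.36), 0.72 for Ogdh (SE 0.34) and a median of 0.71 beside 0.0083 over all genes. Adjusted p-values lay between 0.445 and 0.692 (edgeR). edgeR called 0% of all genes here (1968 of 16954 at an unadjusted p under 0.05, 476 genes in DESeq2 and 595 with voom weights) and 0 of the 9, with 0 also at an unadjusted p under 0.05 and in DESeq2, and 3.59% of all genes but 0 of the 9 had groups without overlap. Without aJ1aJ2 replicate 2, the only library of this set over the muscle limit, the values ran from -0.12 (Fh1) to 0.25.

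**Figure D3:**
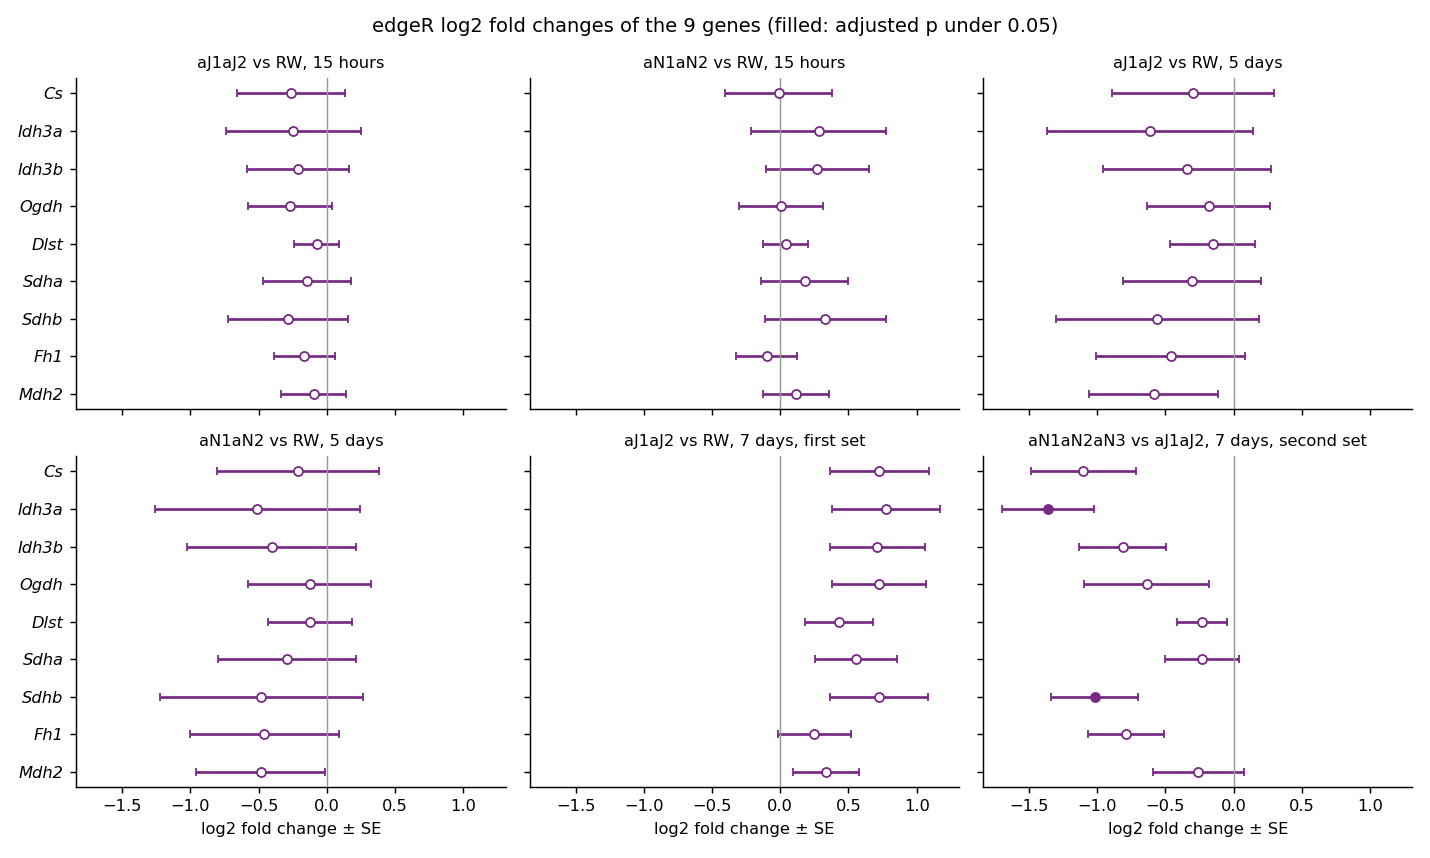
edgeR log2 fold changes with their SE for the 9 genes in the 6 comparisons of antibody groups, with filled points where the adjusted p is under 0.05. Only Idh3a (-1.36) and Sdhb (-1.02) in the second 7-day set are filled, and no point of the 5 comparisons with RW is filled.

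In the second 7-day set Idh3a and Sdhb were lower after aN1aN2aN3 than after aJ1aJ2. The other 7 genes had lower fitted values that did not pass the test. With no RW library in this set, a fall after aN1aN2aN3 and a rise after aJ1aJ2 cannot be told apart. Idh3a stood at 356, 515, 330.0, 886 and 355 CPM after aJ1aJ2 and at 319, 212, 164, 144 and 133 after aN1aN2aN3. Every aN1aN2aN3 library lay below every aJ1aJ2 library, and the fitted level was 2.56-fold lower (log2 fold change -1.36, SE 0.34, adjusted p = 0.0167 in edgeR). Sdhb stood at 412, 559, 488, 970.1 and 308 CPM after aJ1aJ2 and at 434, 235, 279, 211 and 222 after aN1aN2aN3. All 5 aN1aN2aN3 libraries lay below the aJ1aJ2 median, with overlap between aN1aN2aN3 replicate 1 and aJ1aJ2 replicates 1 and 5, and the fitted level was 2.03-fold lower (-1.02, SE 0.32, adjusted p = 0.0416 in edgeR). So 2 of 9 genes were called lower and 0 higher, where 19.6% of all 18450 genes were called and 10.4% were called lower. Groups did not overlap for 1 of the 9, Idh3a, where 15% of all genes did not overlap and 6.65% did so with the lower side in aN1aN2aN3. The median of the 9 log2 fold changes was -0.79 beside -0.067 over all genes.

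Of the 7 genes not called, Cs stood at 112, 133, 122, 421 and 298 CPM after aJ1aJ2 and at 148, 115, 83.8, 96.2 and 74.0 after aN1aN2aN3, with a log2 fold change of -1.10 (SE 0.38, adjusted p = 0.0627). The 2 high aJ1aJ2 values are replicates 4 and 5, with 12.3% and 4.62% muscle counts. Fh1 stood at 205, 218, 214, 381 and 149 CPM against 187, 180.0, 126, 106 and 92.8 (-0.79, SE 0.28, adjusted p = 0.0663), and Idh3b at 207, 266, 220.2, 586 and 207 against 255, 171, 162, 135 and 139 (-0.81, SE 0.32, adjusted p = 0.0895). All 5 aN1aN2aN3 libraries lay below the aJ1aJ2 median for Fh1, and 4 of 5 for Idh3b and Cs. Ogdh stood at 146, 171, 130.4, 694 and 510.2 CPM against 239, 284, 186, 213 and 165, so that 4 of 5 aN1aN2aN3 libraries lay above the aJ1aJ2 median although the fitted value was -0.64 (SE 0.46). Dlst, Sdha and Mdh2 had values of -0.23 (SE 0.18), -0.23 (SE 0.27) and -0.26 (SE 0.33). Whether the genes differ from each other in their response was not tested.

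Without the 3 libraries over the muscle limit (aJ1aJ2 replicates 4 and 5 and aN1aN2aN3 replicate 1, leaving 3 against 4), 4 of the 9 genes were called lower and 0 higher, where 39.4% of all genes were called and 17.9% were called lower. These were Idh3a (-1.29, SE 0.20, adjusted p = 0.000881), Sdhb (-1.04, SE 0.14, adjusted p = 0.000377), Fh1 (-0.75, SE 0.21, adjusted p = 0.0170) and Idh3b (-0.60, SE 0.13, adjusted p = 0.00532), all from edgeR. The values of Idh3a and Sdhb were thus about as large as with all 10 libraries. Cs shrank to -0.40 (SE 0.16), and Ogdh (0.51, SE 0.19), Sdha (0.17), Mdh2 (0.16) and Dlst (0.022) changed sign without being called. With the muscle level as a covariate in place of leaving libraries out, 5 were called lower (Idh3a, Sdhb, Cs, Fh1 and Idh3b), where 26.2% of all genes were called and 13.8% were called lower. Leaving out single libraries kept Idh3a called in 10 of 10 refits (-1.61 to -1.01), but ended the call of Sdhb in 8 of 10. Those were the refits without aN1aN2aN3 replicates 2, 3, 4 or 5 and without aJ1aJ2 replicates 1, 2, 3 or 4, with values of -1.10 to -0.69 and adjusted p-values of 0.0523 to 0.102.

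Other markers also moved between these 2 groups. Brown fat genes were lower in aN1aN2aN3 (4 of 6 called lower, 0 higher, summed level 97.7 to 679 CPM against 813 to 2781 after aJ1aJ2), as were adipocyte genes (6 of 8 lower, 0 higher, 512 to 2493 against 4446 to 7319) and mitochondrially encoded genes (10 of the 10 tested lower, 5051 to 13041 against 12969 to 29901). C cell genes were higher (3 of 5, 0 lower, 22214 to 36535 against 7154 to 18395), the thyroid follicle sum was higher (27950 to 49224 against 13578 to 25563, with 2 of 11 tested genes called higher and 1 lower), and 0 of 11 muscle genes was called (4425 to 27202 against 333 to 130176). No marker of these lists was at 0 counts over either group. Of the other marker lists, 2 of 5 macrophage genes, 1 of 5 fibroblast genes, 1 of 5 tested lymphocyte genes and 1 of 2 tested cartilage genes were called lower, 2 of 5 endothelial genes lower and 2 higher, and 0 of the parathyroid and airway genes. The part of these markers in the differences of Idh3a and Sdhb was not tested, other than the muscle refits above.

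**Figure D4:**
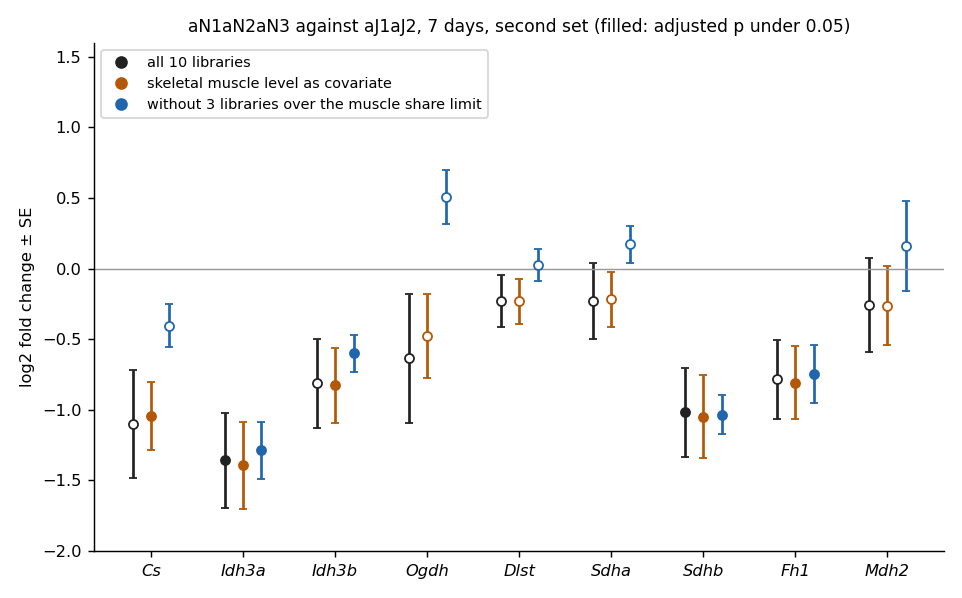
Log2 fold change with its SE of each of the 9 genes after aN1aN2aN3 against aJ1aJ2 in the second 7-day set, from edgeR with all 10 libraries, with the muscle level as a covariate, and without 3 muscle-rich libraries, with filled points where the adjusted p is under 0.05. Idh3a stays between -1.39 and -1.29 and Sdhb between -1.05 and -1.02 in all 3 fits, while Ogdh is at -0.64 with all libraries and at 0.51 without the 3.

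Genes around the 9 were grouped in lists by function. The lists were chosen with earlier results known, each count covers a whole list, and the genes named are those of smallest adjusted p. In the 5 comparisons with RW, 0 of the 46 genes of the 5 lists was called by edgeR. In the second 7-day set, the 10 other subunits of the cycle had 4 called lower and 1 higher (median -0.74). Among them Sucla2, the beta subunit of the ADP-forming succinyl-CoA ligase, stood at 184 ± 58.7 CPM (SD, n = 5) after aN1aN2aN3 against 492 ± 213 after aJ1aJ2, Dld, the E3 component shared by the 2-oxoacid dehydrogenase complexes, at 174 ± 24.6 against 358 ± 127, and Sdhd, a membrane anchor of succinate dehydrogenase, at 243 ± 37.6 against 427 ± 138. Ogdhl, a relative of Ogdh, was the one called higher, at 3.81 ± 0.914 CPM after aN1aN2aN3 against 0.906 ± 0.606 after aJ1aJ2. Its mean in the aJ1aJ2 group of the first 7-day set, 6.57 ± 1.37 CPM, was above both. Of 4 assembly factors of succinate dehydrogenase (median -0.76), Sdhaf4 (-1.20, SE 0.16) and Sdhaf3 (-1.03, SE 0.19) were called lower and 0 higher.

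Of 13 genes of pyruvate entry, 4 were called lower and 2 higher (median -0.46). The pyruvate carrier subunits Mpc2 (-1.37, SE 0.30) and Mpc1 (-1.12, SE 0.24) and the pyruvate dehydrogenase subunit Pdhb (-1.12, SE 0.22) were lower after aN1aN2aN3. Pdk1, a kinase that inhibits pyruvate dehydrogenase, was higher, at 162 ± 21.6 CPM against 98.2 ± 13.6 after aJ1aJ2 (0.69, SE 0.15). Of 10 cytosolic counterparts and shuttles, 5 were called lower and 0 higher (median -0.73), among them Me1 (cytosolic malic enzyme, -1.44, SE 0.22), Idh1 (cytosolic isocitrate dehydrogenase, -1.23, SE 0.20), Slc25a1 (the citrate carrier, -0.89, SE 0.21) and Mdh1 (cytosolic malate dehydrogenase, -0.94, SE 0.24). Of 9 regulators of mitochondrial gene expression only Esrra, an orphan nuclear receptor, was called (-1.10, SE 0.33), and without any of 5 single libraries (aN1aN2aN3 replicates 2, 3, 4 and 5, aJ1aJ2 replicate 4) it was not (-1.15 to -0.66, adjusted p 0.0535 to 0.0970 in edgeR). Mdh1 lost its call in 4 and Sdhd in 5 of the 10 such refits, each time among those without aN1aN2aN3 replicates 2 to 5 and, for Sdhd, aJ1aJ2 replicate 2. The other named genes of these lists kept theirs in 10 of 10. These counts stand beside 10.4% of all genes called lower and 19.6% called in either direction, and the part of the brown fat, adipocyte and mitochondrially encoded RNA given above in them was not tested. Some of the named genes also differed between the aJ1aJ2 groups of the 2 sets, where 64% of all genes were called. Sdhaf4 (2.57), Mpc2 (1.63) and Mdh1 (1.40) were higher in the second set, Ogdhl (-2.84) and Esrra (-1.07) lower, and Pdk1 (-0.037), Slc25a1 (-0.22) and Me1 (-0.42) were not called.

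The 2 sets at 7 days both hold aJ1aJ2 libraries of the same labelled dose and time, and most genes tested were called between these aJ1aJ2 groups. In a fit of the 20 libraries at 7 days, 5 of 9 genes were called (3 lower and 2 higher in the second set). Of all 19570 genes 64% were called, 29.9% lower and 34.1% higher, so the 9 were called no more often than genes at large. Lower in the second set were Ogdh (-1.21, SE 0.41, adjusted p = 0.0134), Cs (-1.06, SE 0.37, adjusted p = 0.0167) and Dlst (-1.03, SE 0.21, adjusted p = 0.000196). Higher were Sdhb, 2.96-fold (1.57, SE 0.34, adjusted p = 0.000456), and Fh1 (0.68, SE 0.27, adjusted p = 0.0322), all in edgeR. Dlst stood at 132, 129, 111, 213 and 149.6 CPM in the second set and at 272, 563, 236, 248 and 236 in the first. Sdhb stood at 412, 559, 488, 970.1 and 308 against 129.6, 428, 119, 127 and 158, where aJ1aJ2 replicate 2 of the first set overlaps the second. The share of all genes without overlap between these 2 groups was not computed. Idh3a (0.66), Idh3b (0.25), Sdha (-0.44) and Mdh2 (0.0043) were not called. The set cannot be told apart from whatever else differed between the series of sample IDs, including any treatment that the labels do not name. The 64% therefore describes the difference between the sets, and its cause was not tested.

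Some of these calls rest on 1 library. Without aJ1aJ2 replicate 2 of the first set Cs (-0.58, adjusted p = 0.112) and Ogdh (-0.79, adjusted p = 0.0725) were no longer called, while Idh3a (1.20) and Idh3b (0.71) were. Without any 1 of aJ1aJ2 replicates 1, 3, 4 or 5 of the first set or replicate 4 of the second, Fh1 was not called (0.45 to 0.62, adjusted p 0.0710 to 0.125). Without the 4 libraries over the muscle limit, 8 of 9 were called, where 70.1% of all genes were: Ogdh (-1.90), Cs (-1.38), Dlst (-0.97) and Sdha (-0.52) lower, Sdhb (1.89), Idh3a (0.94), Fh1 (0.88) and Idh3b (0.37) higher, all in edgeR.

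Ratios of counts within a library do not depend on library scaling. They are not scaled by length, so only their differences between libraries are read, not their size. The log2 ratio of Sdhb to Sdha counts, the iron-sulfur subunit over the flavoprotein, averaged -1.83 ± 0.19 (SD, n = 5) in the aJ1aJ2 group of the first set, 0.23 ± 0.60 in that of the second and -0.58 ± 0.26 after aN1aN2aN3. Over the 40 libraries outside the second set it ran from -2.63 to -1.35, and over the 10 of the second set from -0.87 to 0.73, without overlap. Sdhb over Cs ran from -1.93 to -0.37 and from 0.045 to 2.07, also without overlap. By contrast Idh3b over Idh3a overlapped, at -0.71 to 0.10 outside the second set and -0.95 to 0.063 within it. Inside the second set that ratio was -0.74 ± 0.15 after aJ1aJ2 and -0.14 ± 0.17 after aN1aN2aN3, with -0.95 to -0.58 in the one and -0.32 to 0.063 in the other. Idh3a counts relative to those of its partner were thus lower after aN1aN2aN3 than after aJ1aJ2. The means of the groups outside the second set ran from -0.38 to -0.16. With no RW library in the second set, which of its 2 groups moved cannot be told. Dlst over Ogdh ran from -1.78 to -0.61 outside and from -1.77 to -0.14 inside the second set. Per kilobase of exon, Sdhb had the highest median within the second set (161 CPM per kilobase), above Mdh2 (98.7) in 8 of 10 libraries, and Cs (20.5) and Dlst (13.7) had the lowest. By the longest protein-coding transcript Sdhb again had the highest median there (315), above Mdh2 (242) in 7 of 10. No test was run on these ratios, which were chosen with the levels in view. How many ratios of other genes separate the sets was not computed. Between the aJ1aJ2 groups of the sets 34.1% of all genes were called higher and 29.9% lower, so the separation is not shown to be particular to these genes.

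**Figure D5:**
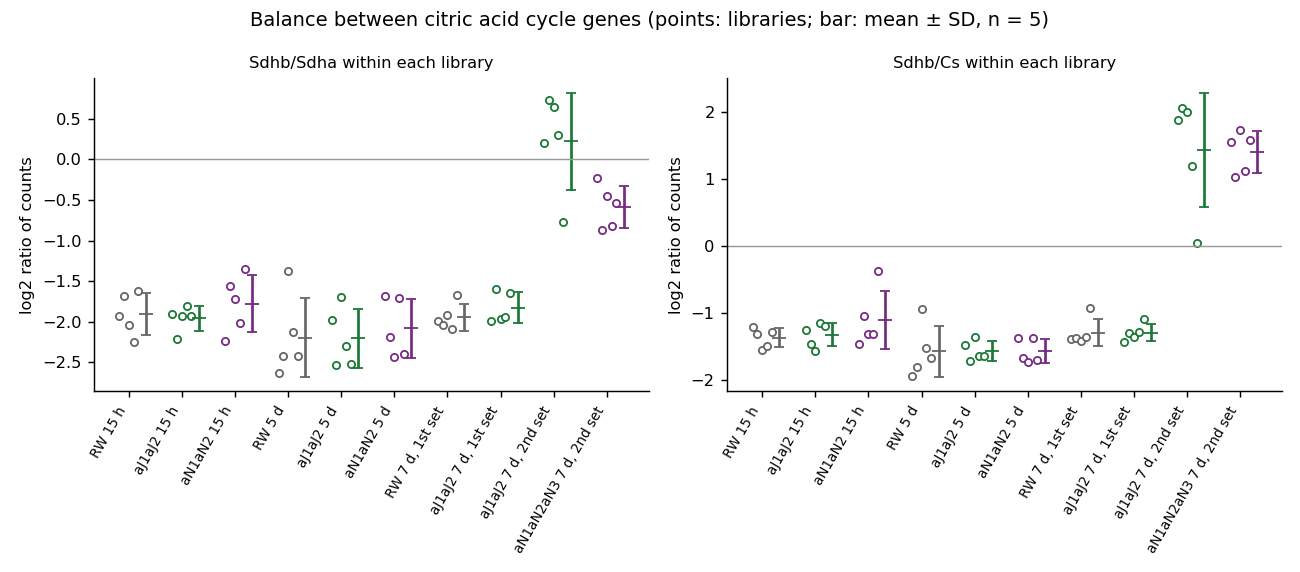
Log2 ratio of counts within each library, not scaled by length, for Sdhb over Sdha and for Sdhb over Cs, by group, with points for libraries and a bar for the mean ± SD (n = 5). All 10 libraries of the second 7-day set lie above all 40 others in both ratios, which were chosen with the levels in view. How many ratios of other genes separate the sets was not computed.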

How the data were processed

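Groups and replicate numbers come from the sample titles. The authors deposited a table of raw read counts per gene and a deposited table of FPKM values, 50 libraries each. GSNAP and limma are named in the submitters' processing notes. No genome build, annotation, counter or use of strand is named; each is not given in the sources used here. Symbols were matched by Ensembl ID to GENCODE M21 (52403 of 52636 IDs).

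Counts were tested with edgeR 4.0.16 in R 4.3.3 (TMM, filterByExpr with minimum count 10 and minimum total 15, robust glmQLFit, glmQLFTest, two-sided, Benjamini-Hochberg over all genes tested, threshold 0.05), fitting the groups of 1 time or set together. All 9 genes passed the filter in every fit. The fit was run on simulated counts in which genes varied independently and with the same fixed spread. That checks the code and not the power of the test on these libraries. CPM uses TMM-scaled library sizes over the 50 libraries, and correlations use log2(CPM + 1). The deposited FPKM proved to be scaled by gene span, introns included, so it was used only for its library factor, and levels between genes use CPM per kilobase of exon (GENCODE M21). Counting error is small beside library spread.

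The 9 genes and the gene lists were chosen with earlier results of these data known. Named list genes are those past the threshold, at most 4 per list, smallest adjusted p first. Alternatives were DESeq2 1.42.0, limma 3.58.1 voom with sample weights, RLE factors, no count filter, Tg left out of library sizes, a muscle covariate, a replicate block, pairwise fits, each library left out and, added later, another transcript length and libraries over 3% muscle counts left out. Of 100 replicate pairs, none agreed within sampling noise (lowest chi-square 17.1 per degree of freedom).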

Additional observations from a re-analysis of the deposited data

Results flagged for a closer look

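For each of the 9 genes and 10 groups, the highest or lowest of the 5 libraries was checked for a gap to its neighbour of over 0.71 of the group's range. The gap was that wide in 23 of 90 checks, where chance alone gives about 1 in 20, and the 9 genes share libraries, so these are 4 libraries and not 23 independent events. RW replicate 3 at 5 days was far above the other 4 for all 9 genes, in CPM: Cs 1410.0, Idh3a 1418, Idh3b 866, Ogdh 1654, Dlst 572, Sdha 1917, Sdhb 736, Fh1 538 and Mdh2 1519. So was aJ1aJ2 replicate 2 of the first 7-day set: Cs 1052, Idh3a 752, Idh3b 571, Ogdh 1661, Dlst 563, Sdha 1296, Sdhb 428, Fh1 285 and Mdh2 796. At 15 hours aJ1aJ2 replicate 3 stood apart for 4 genes: Cs 588, Idh3a 398, Idh3b 279 and Sdha 761. In the second 7-day set aJ1aJ2 replicate 4 stood apart for 1 gene: Idh3b 586. In these 4 libraries the muscle genes took 12.8%, 8.19%, 5.73% and 12.3% of counts, each the highest share in its group, and their part in the gaps was not tested.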

How the results depend on the processing

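In the 5 comparisons with RW and both interactions none of the 9 genes was called under any alternative, except Mdh2 after aN1aN2 at 5 days with the muscle covariate (-0.67, adjusted p = 0.0487 in edgeR, 1 gene of the 9 called beside 3.98% of all genes). In the second 7-day set the 2 calls became 4 in DESeq2 (21.7% of all genes called), 4 with voom weights (44.7%, a share close to that of the 9), 5 with the muscle covariate (26.2%), 4 without libraries over the muscle limit (39.4%), and 1 to 3 when single libraries were left out. With the replicate number as a block 1 was called there (11.4% of all genes), Idh3a (-1.32, adjusted p = 0.0451), and not Sdhb (-0.96, adjusted p = 0.102), and Slc25a1, Mdh1, Sdhd and Esrra lost their calls. Same-numbered libraries deviated together in no comparison in all 5 pairs. Their correlations ran from -0.31 to 0.060 in the second set, but from -0.19 to 0.81 for aN1aN2 at 15 hours and from -0.21 to 0.73 for aJ1aJ2 at 5 days. Whether they share more than a number is therefore not settled. Between the sets the 5 calls became 8 with voom weights (77.6% of all genes called) and 8 without libraries over the muscle limit (70.1%). The cause of these changes was not tested. Values that changed sign follow, none in a gene called with all libraries. Without libraries over the muscle limit these were, for aJ1aJ2 at 15 hours, Cs 0.12, Idh3a 0.26, Idh3b 0.25, Ogdh 0.11, Dlst 0.11, Sdha 0.17, Sdhb 0.28, Mdh2 0.21, and for aN1aN2 at 15 hours, Cs 0.052, Mdh2 -0.025, and for aJ1aJ2 at 5 days, Cs 0.11, Idh3a 0.18, Idh3b 0.28, Ogdh 0.012, Dlst 0.13, Sdha 0.11, Sdhb 0.23, Fh1 0.079, and for aN1aN2 at 5 days, Cs 0.15, Idh3a 0.14, Idh3b 0.13, Ogdh 0.076, Dlst 0.20, Sdha 0.12, Sdhb 0.17, Fh1 0.059, and for the first 7-day set, Fh1 -0.12, and for the second 7-day set, Ogdh 0.51, Dlst 0.022, Sdha 0.17, Mdh2 0.16, and for the contrast of the sets, Mdh2 -0.21. With voom weights these were, for aJ1aJ2 at 15 hours, Idh3a 0.0062, Idh3b 0.025, Sdhb 0.035, Mdh2 0.079, and for aN1aN2 at 15 hours, Cs 0.32, and for aJ1aJ2 at 5 days, Idh3b 0.14, Dlst 0.029, Sdha 0.0012, Sdhb 0.060, and for aN1aN2 at 5 days, Cs 0.27, Idh3a 0.32, Idh3b 0.27, Ogdh 0.18, Dlst 0.24, Sdha 0.22, Sdhb 0.38, Fh1 0.14, and for the first 7-day set, Fh1 -0.072, and for the second 7-day set, Ogdh 0.36, Sdha 0.12, Mdh2 0.14, and for the contrast of the sets, Mdh2 -0.18. With the replicate block these were, for aN1aN2 at 15 hours, Cs 0.0043, and for aN1aN2 at 5 days, Cs 0.23, Idh3a 0.23, Idh3b 0.14, Ogdh 0.10, Dlst 0.0081, Sdha 0.066, Sdhb 0.28. With the muscle covariate these were, for aN1aN2 at 15 hours, Ogdh -0.045, and for the first 7-day set, Fh1 -0.069. With RLE factors these were, for aN1aN2 at 15 hours, Cs 0.013. With no count filter these were, for aN1aN2 at 15 hours, Cs 0.031, and for the contrast of the sets, Mdh2 -0.0071. In DESeq2 these were, for aN1aN2 at 15 hours, Cs 0.017. With Tg left out these were, for aN1aN2 at 15 hours, Cs 0.0070. In the pairwise fit these were, for aN1aN2 at 15 hours, Cs 0.0034. Leaving out single libraries also turned signs. For aJ1aJ2 at 15 hours the ranges were Cs -0.58 to 0.022, Idh3a -0.63 to 0.10, Idh3b -0.44 to 0.046, Dlst -0.12 to 0.040, Sdha -0.35 to 0.077, Sdhb -0.50 to 0.032, Mdh2 -0.18 to 0.060. For aN1aN2 at 15 hours the ranges were Cs -0.16 to 0.26, Ogdh -0.13 to 0.22, Dlst -0.015 to 0.14, Fh1 -0.25 to 0.043. For aJ1aJ2 at 5 days the ranges were Cs -0.79 to 0.59, Idh3a -1.16 to 0.73, Idh3b -0.80 to 0.74, Ogdh -0.55 to 0.38, Dlst -0.29 to 0.27, Sdha -0.66 to 0.47, Sdhb -1.15 to 0.81, Fh1 -0.81 to 0.43, Mdh2 -0.93 to 0.10. For aN1aN2 at 5 days the ranges were Cs -0.52 to 0.68, Idh3a -0.89 to 0.83, Idh3b -0.68 to 0.67, Ogdh -0.36 to 0.43, Dlst -0.24 to 0.29, Sdha -0.52 to 0.48, Sdhb -0.86 to 0.89, Fh1 -0.69 to 0.43, Mdh2 -0.73 to 0.19. For the first 7-day set the ranges were Fh1 -0.12 to 0.35. For the second 7-day set the ranges were Sdha -0.35 to 0.065. For the contrast of the sets the ranges were Idh3b -0.13 to 0.71, Mdh2 -0.21 to 0.26. Depth was not a limit, with at least 1493 counts of each gene in each library, whereas the spread between 5 libraries was.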
